A study of Mus musculus with 5 samples.

Results

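In all, 10 marker genes of the liver sinusoidal endothelium were examined in RNA from Akt/Notch liver tumours with and without late Prox1 overexpression. The genes were fixed by symbol as Clec4g, Stab1, Stab2, Oit3, Dnase1l3, Fcgr2b, Kdr, Gpr182, Pecam1 and Cdh5. All 10 were found among the 55397 Ensembl genes of the deposited table and all 10 were among the 17105 genes abundant enough to test, with a mean of at least 10 normalised counts. Tumours were raised in female C57BL/6N mice, injected at 8 weeks of age through the tail vein with a large volume of plasmid solution, a method by which mainly hepatocytes take up DNA. All mice received Sleeping Beauty transposase driven by CMV and transposons with the EF1a promoter carrying AKT and NICD, the active intracellular part of a NOTCH receptor, with rtTA on the NICD plasmid. The 3 Prox1 OE libraries came from mice that also carried FLAG-tagged mouse Prox1 with GFP behind the doxycycline-responsive Tre promoter, and the 2 Control libraries from mice whose Tre plasmid held GFP without Prox1. Doxycycline food (6.25%) began at day 21, so that Prox1 was induced from week 3 to week 4. The labels name the cells as transformed hepatocytes, yet the RNA is from whole dissected tumours, so the endothelium was sampled along with tumour cells and was not the target of the plasmids. The study's legend counts its RNA-seq replicates as mice, but no label ties each library to a mouse or says which tumours were taken at a humane endpoint, so p-values measure the spread between these libraries.

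Sinusoidal endothelial cells line the capillaries of the liver. They are perforated by open pores without a diaphragm, lack a continuous basement membrane and clear waste from the blood through scavenger receptors, which sets them apart from the closed capillaries of most organs. When this state is lost, in fibrosis and in many tumours, the cells take on features of ordinary capillaries, a process called capillarisation. The list holds both genes largely restricted to sinusoidal cells, such as Clec4g, Stab2 and Oit3, and genes of endothelium in general, namely Pecam1, Cdh5 and Kdr.

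The markers did not all move alike. By the limma test with Benjamini-Hochberg adjustment over all genes, 6 of the 10 markers were higher in Prox1 OE and 0 were lower, where 17.1% of all genes tested were called higher, 16.2% lower and 33.3% in either direction. At an unadjusted p under 0.05, 8 were higher and 0 lower, beside 22.8% and 22.9% of all genes. edgeR on recovered reads called 7 higher and 0 lower (18% and 15.7% of all genes), and DESeq2 8 and 0 (20.3% and 18.6%). With total reads as library size, 4 were higher and 2 lower, beside 1472 and 6856 of 17124 genes. Fewer markers were called when some libraries were left out, as given in the closing sections. Clec4g and Dnase1l3 rose most, Stab2, Fcgr2b and Gpr182 rose by about the same amount as each other, and Stab1 rose least. In normalised counts, Oit3 and Kdr lay above Control in every Prox1 OE library without passing the test, and the junction genes Pecam1 and Cdh5 lay below. The median log2 fold change of the 10 markers was 0.80, against -0.02 for all genes tested. In normalised counts no marker had groups that overlapped: 8 were higher in all Prox1 OE libraries than in both Control libraries and 2 were lower, as were 30.9% and 32.4% of all genes tested (63.3% in either direction). In whole-tumour RNA, more endothelial cells of this kind and more RNA per cell cannot be told apart. Values below are normalised read counts, that is, reads divided by a size factor of the library, and fold changes are differences of log2(normalised count + 1), Prox1 OE minus Control.

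**Figure D1:**
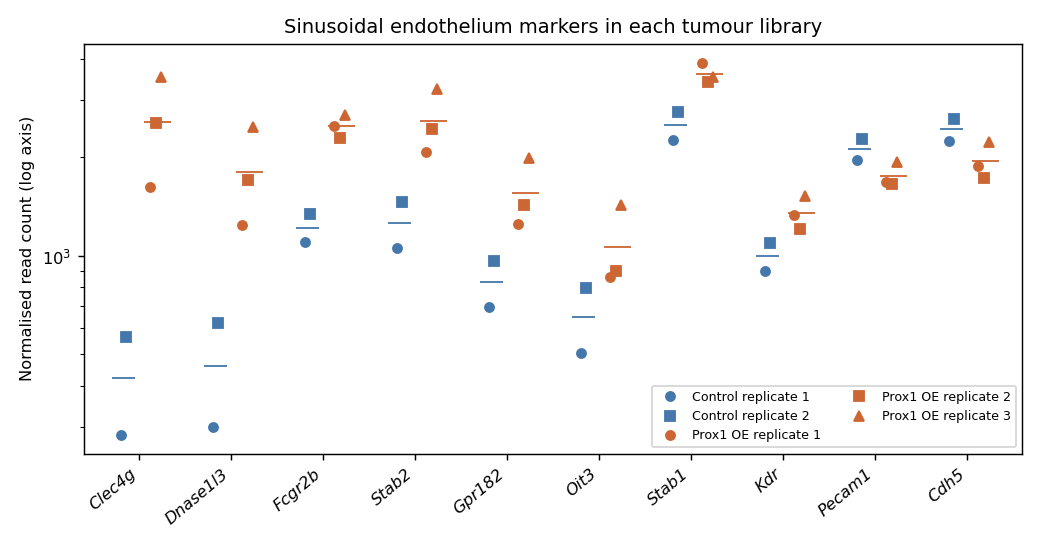
Normalised read count (log axis) of the 10 markers in each of the 2 Control (blue) and 3 Prox1 OE (orange) libraries, with symbols for the replicate number and short lines for the group means. Clec4g ranged from 283 to 565 in Control and from 1629 to 3537 in Prox1 OE, whereas Cdh5 was 2244 and 2628 in Control and 1725 to 2230 in Prox1 OE.

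Clec4g encodes LSECtin, a C-type lectin of sinusoidal cells that binds sugars on pathogens and activated T cells. The gene (ENSMUSG00000074491, mm10 chromosome 8, 3707064 to 3720651, minus strand) had 283 and 565 normalised counts in Control replicates 1 and 2, and 1629, 2551 and 3537 in Prox1 OE replicates 1, 2 and 3. The lowest Prox1 OE library lay well above the highest Control library. The Control mean was 424 ± 200 (SD, n = 2) and the Prox1 OE mean 2572 ± 954 (SD, n = 3), a ratio of 6.07. On the log2 scale it rose by 2.61 (SE 0.37, limma adjusted p = 0.0035), and 0.59% of the genes tested had a larger one. Over the alternatives the change ran from 2.11 to 3.11 and stayed past the threshold in each (adjusted p of 9.8e-11 to 0.026).

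Of the 10 markers, 5 had a promoter window in the RefSeq table (GRCm38.p6, the sequence of mm10), and those of the marker that rose most and of the marker with the smallest called rise are shown because neither window held an annotated exon. Each is the 250 bases before the transcription start, 5′ to 3′ on the gene's strand, at chr8:3720652-3720901 (Clec4g, minus strand) and chr14:31168642-31168891 (Stab1, minus strand). Capitals mark AGGAAG, the core letters of many ETS factor sites, on either strand.
Clec4g: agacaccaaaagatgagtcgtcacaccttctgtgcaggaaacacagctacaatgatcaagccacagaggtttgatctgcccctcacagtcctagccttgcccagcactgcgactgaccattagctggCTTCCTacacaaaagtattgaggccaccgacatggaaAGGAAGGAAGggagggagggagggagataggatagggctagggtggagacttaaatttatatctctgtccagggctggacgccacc
Stab1: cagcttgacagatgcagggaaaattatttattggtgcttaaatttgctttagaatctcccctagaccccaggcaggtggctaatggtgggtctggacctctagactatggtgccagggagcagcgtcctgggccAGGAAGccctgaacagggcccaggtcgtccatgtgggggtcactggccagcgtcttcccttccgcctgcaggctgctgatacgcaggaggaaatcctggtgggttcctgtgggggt
The Clec4g window held 3 matches to AGGAAG, of which 2 shared letters, and the Stab1 window held 1. Across all 32851 promoter windows of this length 29.5% held AGGAAG, so that a match is common. Neither window held GATAA, a longer form of the GATA core, which 22.6% of windows held. Nor did either hold ACAAAG, a SOX factor core that 16.5% held. The shorter letters GATA occur in both printed windows and were not counted. These are matches of letters and no test of binding.

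The scavenger receptors take up waste molecules from the blood, and all 3 rose. Stab2 (chromosome 10, 86841198 to 87008025, minus strand), the receptor that clears hyaluronan, had 1054 and 1457 normalised counts in Control and 2079, 2451 and 3242 in Prox1 OE. It rose by 1.04 on the log2 scale (SE 0.22, limma adjusted p = 0.011). Fcgr2b (chromosome 1, 170958617 to 170976547, minus strand), the inhibitory antibody receptor through which sinusoidal cells take up immune complexes, had 1099 and 1339 in Control and 2500, 2296 and 2702 in Prox1 OE. The Prox1 OE libraries were close together, and the rise was also 1.04 (SE 0.14, limma adjusted p = 0.0030). Stab1 (chromosome 14, 31139013 to 31168641, minus strand), the relative of Stab2 that macrophages also make, had 2267 and 2756 in Control and 3903, 3397 and 3530 in Prox1 OE. The step was smaller, at 0.53 on the log2 scale (SE 0.13, limma adjusted p = 0.021). Stab1 lost its call under 5 of the 17 alternatives that kept the threshold, among them the fits without Control replicate 1 (0.39, adjusted p = 0.22) or 2 (0.67, 0.050), and Stab2 lost it without Control replicate 1 (0.81, adjusted p = 0.097).

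Oit3 and Dnase1l3 encode secreted proteins. Dnase1l3 (chromosome 14, 7964533 to 7994573, minus strand), a nuclease that digests DNA of dead cells in the blood, had 299 and 623 normalised counts in Control and 1244, 1703 and 2479 in Prox1 OE. It rose by 2.01 on the log2 scale (SE 0.36, limma adjusted p = 0.0069), the second largest of the 10. Oit3 (chromosome 10, 59422958 to 59441778, minus strand) had 505 and 795 in Control and 860, 898 and 1435 in Prox1 OE. Its highest Control library came close to the lowest Prox1 OE library, and the log2 fold change of 0.71 (95% interval 0.06 to 1.35) did not pass the threshold after adjustment (limma adjusted p = 0.086). It passed with DESeq2 on recovered reads (0.72, adjusted p = 0.046) and was 0.38 (0.47) without Control replicate 1, 0.47 (0.18) without Prox1 OE replicate 3, 0.47 (0.084) with the replicate block and 0.28 (0.35) with total reads.

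Gpr182 and Kdr encode receptors at the cell surface. Gpr182 (chromosome 10, 127747276 to 127751732, minus strand), a receptor of endothelium that binds chemokines without signalling in the usual way, had 698 and 965 normalised counts in Control and 1255, 1434 and 1991 in Prox1 OE. The groups were separate and the rise was 0.90 on the log2 scale (SE 0.23, limma adjusted p = 0.022). Its call was lost without Control replicate 1 (0.66, adjusted p = 0.17), without Prox1 OE replicate 2 (0.94, adjusted p = 0.061), with total reads (0.47, 0.073) and without the mean-variance trend (0.90, 0.061), where 4 of the 10 markers were called, each higher, beside 13.4% of all genes higher and 11.3% lower. Kdr (chromosome 5, 75932827 to 75978458, minus strand), the main VEGF receptor of blood vessels, had 897 and 1098 in Control and 1330, 1212 and 1523 in Prox1 OE. Its log2 fold change of 0.44 (95% interval 0.08 to 0.80) missed the threshold (limma adjusted p = 0.060) and depended on scaling, being 0.52 with upper-quartile factors (adjusted p = 0.033) and 0.01 with total reads (adjusted p = 0.95).

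Pecam1 and Cdh5 encode adhesion proteins that hold endothelial cells together. Pecam1 (chromosome 11, 106654217 to 106750628, minus strand), which platelets and leukocytes also carry, had 1964 and 2273 normalised counts in Control and 1682, 1653 and 1937 in Prox1 OE. Cdh5 (chromosome 8, 104101625 to 104144511, plus strand), which encodes VE-cadherin, had 2244 and 2628 in Control and 1881, 1725 and 2230 in Prox1 OE. The highest Prox1 OE library of either gene lay just under the lower Control library. The log2 fold changes were -0.27 (95% interval -0.57 to 0.04, limma adjusted p = 0.15) and -0.33 (95% interval -0.67 to 0.02, limma adjusted p = 0.12). A rise of the size seen in Clec4g, Dnase1l3, Stab2 or Fcgr2b lay outside both intervals.

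**Figure D2:**
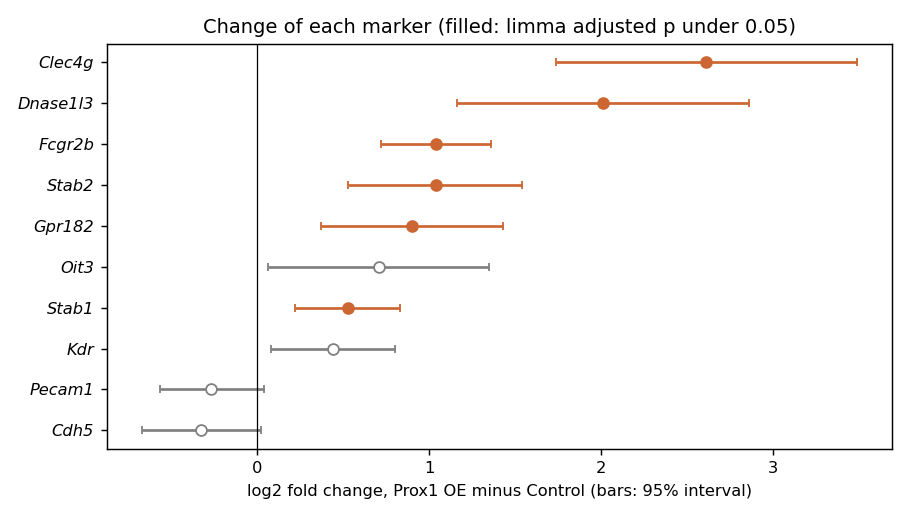
Log2 fold change of each marker, Prox1 OE (n = 3) minus Control (n = 2), with its 95% interval from the limma fit, filled where the adjusted p was under 0.05. The 6 intervals with filled points lie above 0, led by Clec4g at 2.61, and the intervals of Pecam1 and Cdh5 include 0.

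Whether the junction genes were called depended on how libraries were scaled, while both lay lower in Prox1 OE under every alternative run. With total reads as library size the median of all genes tested moved to -0.45, Pecam1 and Cdh5 changed by -0.70 and -0.76 and were called lower (adjusted p = 0.0038 and 0.0033), and 4 markers (Clec4g, Dnase1l3, Stab2 and Fcgr2b) were called higher. The median of the 10 markers was 0.37 on that scale. In RPKM, which also uses total reads, the groups overlapped for Kdr (2.30 and 2.65 in Control, 2.33 to 2.57 in Prox1 OE), Stab1 (5.09 and 5.85, 5.24 to 6.61) and Oit3 (4.19 and 6.23, 5.37 to 7.85). Over all genes 1472 were then called higher and 6856 lower, against 2933 and 2769 with the deposited scaling. Of the lists described below, the other sinusoidal genes had 4 higher and 3 lower with total reads, general endothelium 6 lower, the VEGF and angiopoietin genes 8 lower, the capillary genes 5 lower and the transcription factors 6 lower, the last 4 lists with none higher. The angiocrine genes then had 0 higher and 3 lower, the lymphatic genes 1 and 2, and the Kupffer genes 5 and 0. With TMM, upper-quartile and DESeq2 scaling no marker was called lower.

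The markers were also compared with other endothelial genes. A list of 16 genes of endothelium in general, which holds none of the markers, centred on -0.03 (median log2 fold change), and 1 of its genes was called. That was Ecscr, an endothelial surface regulator, which fell by 0.85 (limma adjusted p = 0.0085) and lost its call without Control replicate 1 (-0.91, adjusted p = 0.054) or 2 (-0.79, 0.065). Without Prox1 OE replicate 1, 3 genes of the list were called higher and 1 lower. The list took 407 and 452 RPM (reads scaled to 1 common library total) in Control and 283 to 337 in Prox1 OE. RPM rests on total reads, unlike the deposited scaling. With total reads the list centred on -0.46 and all genes tested on -0.45. When every value was taken relative to the mean log2 level of those 16 genes in the same library, 5 of the 10 markers were called higher and 0 lower, against 12% and 7.86% of all genes. Clec4g changed by 2.60 on that scale (limma adjusted p = 7.9e-05), Dnase1l3 by 1.99 (3.2e-04), Stab2 by 1.02 (0.0045), Fcgr2b by 1.02 (0.0049) and Gpr182 by 0.88 (0.015). Oit3 (0.69, adjusted p = 0.073), Stab1 (0.51, 0.13), Kdr (0.43, 0.22), Pecam1 (-0.29, 0.38) and Cdh5 (-0.34, 0.29) were not called on it.

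Ratios between markers were taken within single libraries. Per exon base, the ratio of Clec4g to Cdh5 reads was 0.215 and 0.367 in Control and 1.48, 2.52 and 2.71 in Prox1 OE. The ratio of Stab2 to Cdh5 was 0.225 and 0.266 in Control and 0.530, 0.682 and 0.698 in Prox1 OE. That of Kdr to Cdh5 was 0.186 and 0.194 in Control and 0.329, 0.327 and 0.318 in Prox1 OE, with little spread in either group. In contrast, the ratio of Pecam1 to Cdh5 was 0.591 and 0.584 in Control and 0.603, 0.647 and 0.586 in Prox1 OE, where the groups overlapped. Scaling of libraries does not enter these ratios, but a change in Cdh5 does. Cdh5 had the lowest log2 fold change of the 10 markers (-0.33), so a ratio to it rises further than its numerator. In mean RPKM, Kdr was 2.47 in Control and 2.49 in Prox1 OE, while Cdh5 was 13.0 and 7.68.

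**Figure D3:**
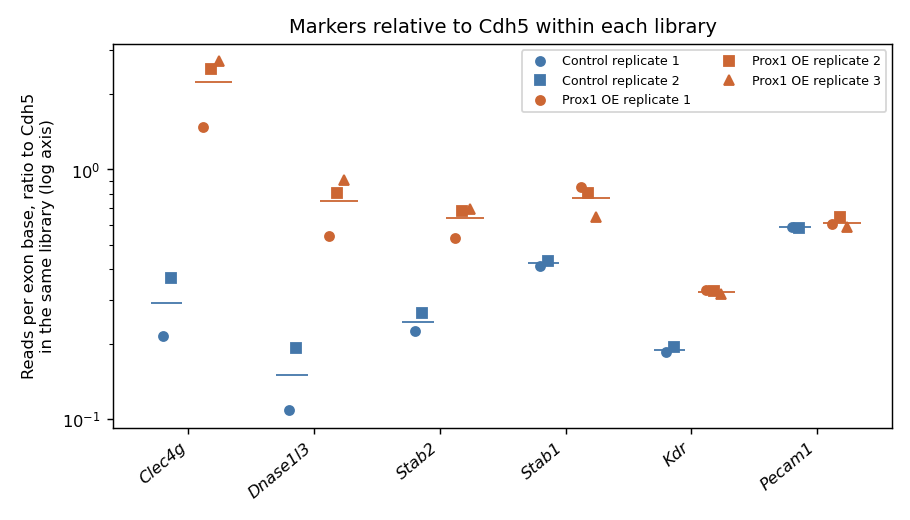
Reads per exon base of 6 markers divided by those of Cdh5 in the same library (log axis), for 2 Control (blue) and 3 Prox1 OE (orange) libraries, with lines for the group means. Clec4g passed from under 1 in both Control libraries to above 1 in all Prox1 OE libraries, and Pecam1 stayed between 0.584 and 0.647 in all 5. In normalised counts Cdh5, the denominator, lay lower in all Prox1 OE libraries than in both Control libraries.

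The order of the markers by level changed accordingly. In RPKM (reads per kilobase of exon, scaled to the total reads of the library), Cdh5 was the most abundant marker in Control (13.0 ± 0.928, SD, n = 2), followed by Pecam1 (7.63 ± 0.481, SD, n = 2) and Stab1 (5.47 ± 0.535, SD, n = 2). Clec4g stood seventh at 3.83 ± 1.67 (SD, n = 2), and Dnase1l3 was last at 1.99 ± 0.918 (SD, n = 2). Ranges in Control overlapped between neighbours from Stab1, the third, down to Stab2, the eighth, and again between Kdr, the ninth, and Dnase1l3, so that the order within these stretches was not resolved. The range of Stab2 did not reach that of Kdr. In Prox1 OE, Clec4g was first at 17.2 ± 5.25 (SD, n = 3) and its range did not reach that of Cdh5, the second at 7.68 ± 0.491 (SD, n = 3). Neighbours from Cdh5 down to Pecam1, the ninth at 4.69 ± 0.067 (SD, n = 3), overlapped in range, and Kdr was last at 2.49 ± 0.137 (SD, n = 3).

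Libraries of a group also differed. All 10 markers were higher in Control replicate 2 than in Control replicate 1, from 1.16 times for Pecam1 to 2.08 times for Dnase1l3. In Prox1 OE replicate 3 Clec4g was 2.17 times its level in Prox1 OE replicate 1, whereas Stab1 was 0.904 times. Prox1 itself had 4153 and 4664 normalised counts in Control and 48090, 11113 and 8231 in Prox1 OE, so that the library with the most Prox1 had the least Clec4g, Dnase1l3, Stab2, Oit3 and Gpr182 of the 3. Its log2 fold change of 1.90 did not pass the threshold (SE 0.66, limma adjusted p = 0.061). It was called without Prox1 OE replicate 1 (1.12, adjusted p = 0.0055), without Prox1 OE replicate 3 (2.39, 0.032), with the replicate block (2.39, 0.0019), with edgeR (2.36, 0.047) and relative to the pan-endothelial list (1.88, 0.035). Totals were 48740863 to 56629477 reads per library, and every marker rested on at least 344 reads in every library.

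Other genes of sinusoidal cells were taken from a separate list of 16, of which 15 were tested. In it 8 were called higher and 2 lower, with a median log2 fold change of 0.72. These counts fell to 1 higher and 0 lower without Control replicate 1, and to 5 and 0 without Control replicate 2. Clec1b, a lectin receptor better known from platelets and not confined to sinusoidal cells, rose by 1.28 (SE 0.28, limma adjusted p = 0.013). Plxnc1, a semaphorin receptor, rose by 1.07 (SE 0.14, limma adjusted p = 0.0030). Ctsl, the lysosomal protease cathepsin L, rose by 0.94 (limma adjusted p = 0.0055) and the cytokine gene Il1a by 1.25 (limma adjusted p = 0.0087). The 2 that fell, named after their values were seen, were Sema6a (-0.81, limma adjusted p = 0.012) and Gas6 (-0.56, limma adjusted p = 0.028). Sema6a lost its call without Control replicate 1 (-0.86, adjusted p = 0.073) or 2 (-0.76, 0.082), and Gas6 without Control replicate 1 (-0.52, 0.21), Control replicate 2 (-0.60, 0.14) or Prox1 OE replicate 3 (-0.47, 0.063) and with the replicate block (-0.47, 0.076) or relative to the pan-endothelial list (-0.58, 0.073). Without Control replicate 1, Clec1b (0.95, adjusted p = 0.11), Il1a (1.07, 0.09) and Ctsl (0.83, 0.076) lost their calls. Lyve1, the hyaluronan receptor of sinusoidal and lymphatic endothelium and also named after its values were seen, had 1268 and 1922 normalised counts in Control and 1075, 759 and 1538 in Prox1 OE, with overlapping groups (log2 fold change -0.53, limma adjusted p = 0.21). In mean RPKM, Gas6 (346 in Control, 175 in Prox1 OE) and Ctsl (54.7 and 78.1) lay above Cdh5 (13.0 and 7.68). The other genes of the list named here lay below Cdh5. The Kupffer list described below had a median of 0.88. Which cells the reads of the sinusoidal list came from was not tested.

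Sinusoidal cells also signal to hepatocytes through secreted angiocrine factors. Of a list of 9 angiocrine genes, not all of which encode secreted proteins, 2 were called higher and 2 lower. The median log2 fold change was 0.23. Without Control replicate 1, Prox1 OE replicate 2 or Prox1 OE replicate 3 there were 0 higher and 2 lower. Wnt2, a WNT ligand of sinusoids around the central vein, had 60.8 and 109 normalised counts in Control and 154, 166 and 294 in Prox1 OE, a rise of 1.26 (SE 0.37, limma adjusted p = 0.036). Its call was lost under 6 alternatives, including the fits without Control replicate 1 (0.84, adjusted p = 0.25), Prox1 OE replicate 2 (1.37, 0.075) or Prox1 OE replicate 3 (0.97, 0.08), with total reads (0.83, 0.067), without the filter (1.26, 0.065) and without the trend (1.26, 0.071). The other was Wnt9b (0.89, limma adjusted p = 0.029), which was outside the naming rule. It lost its call without Control replicate 1 (1.06, adjusted p = 0.11), Control replicate 2 (0.72, 0.20), Prox1 OE replicate 2 (0.84, 0.084) or Prox1 OE replicate 3 (0.88, 0.070) and with the replicate block (0.88, 0.053), total reads (0.47, 0.20), no filter (0.89, 0.053) or relative to the pan-endothelial list (0.87, 0.098). Bmp6, the ligand that sets hepatic iron hormone production, fell by 1.40 (SE 0.14, limma adjusted p = 0.0023), and Kitl, the ligand of KIT, fell by 1.57 (SE 0.12, limma adjusted p = 0.0015). Both can be made by cells other than endothelium.

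The VEGF and angiopoietin system controls vessel growth, with Kdr as its main receptor. Of the other 13 genes of the system, 2 were called higher and 4 lower, with a median log2 fold change of -0.23. Without either Control replicate 1 or 2 there were 0 higher and 3 lower. Among the ligands, Angpt2, made by sprouting endothelium and an antagonist of TIE2 in many settings, fell furthest, from 661 and 595 normalised counts in Control to 106, 81.4 and 98.4 in Prox1 OE. That was a change of -2.71 on the log2 scale (SE 0.20, limma adjusted p = 0.0014). Pgf, placental growth factor, fell from 412 and 698 to 201, 160 and 134, a change of -1.71 (SE 0.28, limma adjusted p = 0.0050). Angpt1 changed by -0.59 (limma adjusted p = 0.022) and Vegfb by 0.49 (limma adjusted p = 0.040). Vegfa (-0.51, limma adjusted p = 0.076), Vegfc (-0.26, 0.32) and Vegfd (-0.23, 0.45) were not called, although with total reads Vegfa (-0.94, adjusted p = 0.0029) and Vegfc (-0.69, 0.019) were called lower, and Vegfa also with the replicate block (-0.61, 0.011). Angpt1 lost its call without Control replicate 1 (-0.58, adjusted p = 0.19) or 2 (-0.61, 0.15) and relative to the pan-endothelial list (-0.61, 0.13).

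Receptors of the system did not move together. Flt1, VEGF receptor 1, fell from 1166 and 1559 normalised counts in Control to 551, 650 and 707 in Prox1 OE, a change of -1.09 (SE 0.18, limma adjusted p = 0.0050), while Kdr was not called (0.44, limma adjusted p = 0.060). Tek, which encodes TIE2, rose by 0.56 (SE 0.16, limma adjusted p = 0.036). Flt4 (0.43, limma adjusted p = 0.11), Tie1 (-0.02, 0.94), Nrp1 (-0.06, 0.74) and Nrp2 (0.05, 0.84) were not called, and the signs of these 4 changed under some alternatives. With total reads Tie1 (-0.45, adjusted p = 0.032) and Nrp1 (-0.49, 0.020) were called lower. The falls of Angpt2, Pgf and Flt1 were called under every alternative run, whereas the rises of Tek and Vegfb were each lost under 9. Those included the fits without Control replicate 1 (Tek 0.61, adjusted p = 0.17, Vegfb 0.54, 0.17), Control replicate 2 (Tek 0.51, 0.21, Vegfb 0.45, 0.21), Prox1 OE replicate 2 (Tek 0.61, 0.065, Vegfb 0.46, 0.11) and Prox1 OE replicate 3 (Tek 0.46, 0.089, Vegfb 0.41, 0.098), and the replicate block (Tek 0.46, 0.083, Vegfb 0.41, 0.084). The others were total reads (Tek 0.13, 0.58, Vegfb 0.06, 0.76), the scale relative to the pan-endothelial list (Tek 0.54, 0.16, Vegfb 0.48, 0.16), no filter (Tek adjusted p = 0.054, Vegfb 0.065) and no trend (Tek 0.053, Vegfb 0.084).

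**Figure D4:**
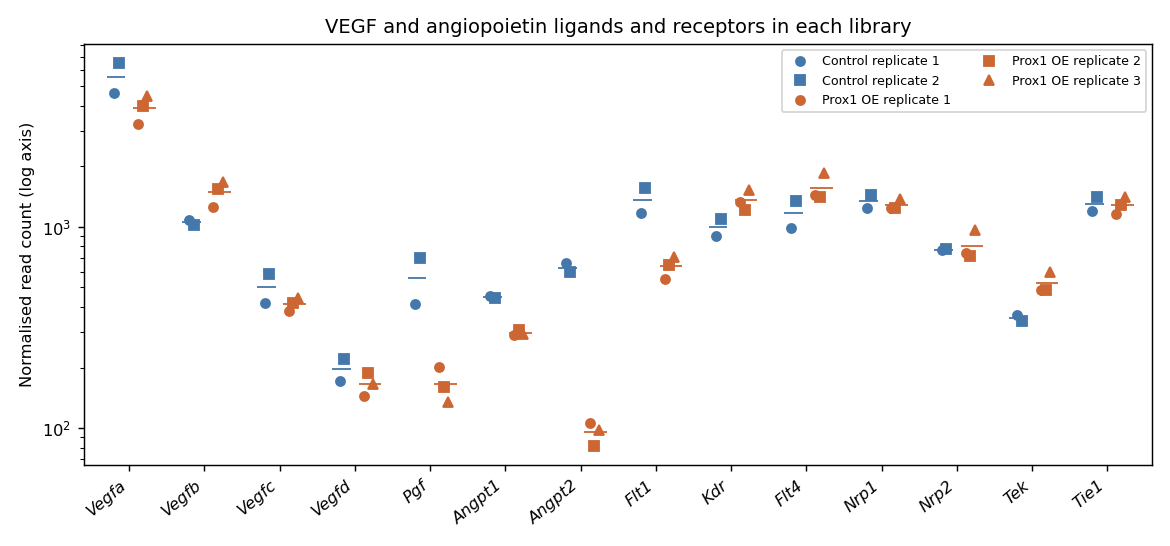
Normalised read count (log axis) of VEGF and angiopoietin ligands and receptors in each Control (blue) and Prox1 OE (orange) library, with lines for the group means. Angpt2, Pgf and Flt1 lie lower in all 3 Prox1 OE libraries than in both Control libraries, and Kdr lies higher on this scale.

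Genes of ordinary capillaries, large vessels and sprouting tips were taken as a further list of 12. In it 4 were called lower and 1 higher, with a median log2 fold change of -0.02. Without Control replicate 1 there were 2 lower and 0 higher. Apln, the apelin ligand of sprouting tips, fell from 679 and 880 normalised counts in Control to 71.6, 27.1 and 22.0 in Prox1 OE, a change of -4.42 (SE 0.48, limma adjusted p = 0.0024). Esm1, endocan, another tip gene, fell from 943 and 1355 to 256, 199 and 240, a change of -2.29 (SE 0.21, limma adjusted p = 0.0019). Rbp7, a retinol-binding protein of capillaries, fell by 1.10 (limma adjusted p = 0.014) and Vwf, von Willebrand factor, by 0.68 (limma adjusted p = 0.012). Without Control replicate 1, Rbp7 (-0.87, adjusted p = 0.13) and Vwf (-0.62, 0.12) lost their calls, and Vwf also without Control replicate 2 (-0.73, 0.069) and relative to the pan-endothelial list (-0.69, 0.083). The riser, outside the naming rule, was Ly6a (0.60, limma adjusted p = 0.030), which lost its call without Control replicate 1 (0.55, adjusted p = 0.19), Control replicate 2 (0.65, 0.12), Prox1 OE replicate 2 (0.60, 0.085) or Prox1 OE replicate 3 (0.48, 0.067). Ly6a also lost it with total reads (0.17, adjusted p = 0.40), relative to the pan-endothelial list (0.59, 0.084), without the filter (0.60, 0.050) and without the trend (0.60, 0.068). Whether Apln, Esm1, Angpt2 and Pgf reads came from endothelium or from tumour cells was not tested.

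Among 15 transcription factor genes of endothelium, 1 was called higher and 2 lower. The counts were 0 and 1 without Control replicate 1, 0 and 0 without Control replicate 2, and 3 and 2 without Prox1 OE replicate 1. Gata4, the factor that directs sinusoidal over continuous endothelial identity, rose from 465 and 535 normalised counts in Control to 985, 644 and 843 in Prox1 OE, a change of 0.70 (SE 0.20, limma adjusted p = 0.032). The call was lost under 7 alternatives, namely no filter (adjusted p = 0.055), no trend (0.070), total reads (0.27, adjusted p = 0.31), the scale relative to other endothelial genes (0.68, adjusted p = 0.11), the fits without Control replicate 1 (0.60, 0.21) or 2 (0.80, 0.098) and the fit without Prox1 OE replicate 3 (0.67, 0.078). Klf4 fell by 1.01 (limma adjusted p = 0.0071) and Nr2f2, a venous factor, by 0.54 (limma adjusted p = 0.0085). Klf4 lost its call without Control replicate 2 (-0.87, adjusted p = 0.086), and Nr2f2 without Control replicate 1 (-0.56, 0.091) or 2 (-0.53, 0.09) and relative to the pan-endothelial list (-0.56, 0.095). Cells other than endothelium, among them stellate and tumour cells, express some of these factors as well. Which cells the Gata4 reads came from was not tested.

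Markers of other cell types moved in the same libraries, and their part in the result was not tested. Kupffer cells, the resident macrophages that share Stab1, Fcgr2b and Mrc1 with sinusoidal cells, had 7 of 12 list genes called, each higher, and a list median of 0.88. Without Control replicate 1, 4 were called. Clec4f, found on Kupffer cells, rose by 1.58 (SE 0.36, limma adjusted p = 0.016), Cd5l by 1.39 (limma adjusted p = 0.0037), the complement gene C1qc by 0.91 (limma adjusted p = 0.0038) and Vsig4 by 0.89 (limma adjusted p = 0.022). Clec4f (1.10, adjusted p = 0.11) and Vsig4 (0.65, 0.17) lost their calls without Control replicate 1. Without the trend Clec4f (1.58, adjusted p = 0.053) and Vsig4 (0.89, 0.063) lost them too, as did Vsig4 with total reads (0.46, 0.078). The Kupffer list took 646 to 667 RPM in Control and 835 to 1001 in Prox1 OE. Of 8 hepatocyte genes 6 were called, each higher, with a median of 1.70 (2 were called without Control replicate 1), and the list took 17681 and 26669 RPM in Control and 43518 to 59254 in Prox1 OE. Among them Ass1 (2.46, limma adjusted p = 0.0028), Apoc3 (1.96, 0.0043), Ttr (1.79, 0.0052) and Cps1 (1.72, 0.014) rose, and without Control replicate 1 Ttr (1.59, 0.086) and Cps1 (1.11, 0.093) lost their calls. Of 5 bile duct genes tested 4 were called, each lower, with a median of -1.21, as Krt7 (-2.50, limma adjusted p = 0.0024), Krt19 (-2.41, 0.0014), Sox9 (-1.21, 0.0026) and Epcam (-1.07, 0.0052) fell. The 10 markers together took 261 and 316 RPM in Control and 320 to 375 in Prox1 OE. None of these lists had a gene at 0 reads in all 5 libraries.

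Genes of some blood cells were examined as well, without lists for monocytes, neutrophils or T cells, and their part in the result was not tested. B cell genes, for a cell type with high Fcgr2b, took 2.72 to 3.38 RPM in Control and 3.67 to 4.40 in Prox1 OE, and 1 of 5 tested was called, Cd79b (0.90, limma adjusted p = 0.025). Cd79b lost its call without Control replicate 1 (1.10, adjusted p = 0.09) or 2 (0.71, 0.19) and without Prox1 OE replicate 2 (0.94, 0.062) or 3 (0.93, 0.055), each of which left 0 of the list called, whereas 2 were called without Prox1 OE replicate 1. The Cd79b call was also lost with total reads (0.48, adjusted p = 0.19) and relative to the pan-endothelial list (0.89, 0.098). The most abundant platelet gene, Pf4, was not called (-0.30, limma adjusted p = 0.37). Of 6 red blood cell genes 4 were called higher relative to the pan-endothelial list, 5 with DESeq2 and 1 with limma on the deposited scale, Alas2 (1.34, limma adjusted p = 0.011, and 1.03, 0.072, without Control replicate 2, while 2 genes were called without Prox1 OE replicate 2), with a median of 0.91 and a list total of 114 and 164 RPM in Control and 146 to 274 in Prox1 OE. Lymphatic endothelium, whose identity depends on Prox1, had 2 of 7 tested genes higher and 1 lower. Prox1 itself, the overexpressed gene, was among those tested and was not called in the main fit. The gene called lower was Pdpn, down by 2.91 (limma adjusted p = 0.0056), and which cells its reads came from was not tested. The others were Reln, also of stellate cells (0.55, limma adjusted p = 0.025, but lost without Control replicate 1 at 0.44, 0.22, without Control replicate 2 at 0.67, 0.075, without Prox1 OE replicate 3 at 0.46, 0.062, with the replicate block at 0.46, 0.052, with total reads at 0.12, 0.52, relative to the pan-endothelial list at 0.53, 0.12, and without the trend at 0.55, 0.060), and Ccl21a, named after its values were seen, which had 1 read in each Control library and 22.5, 28.3 and 26.6 normalised counts in Prox1 OE.

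**Figure D5:**
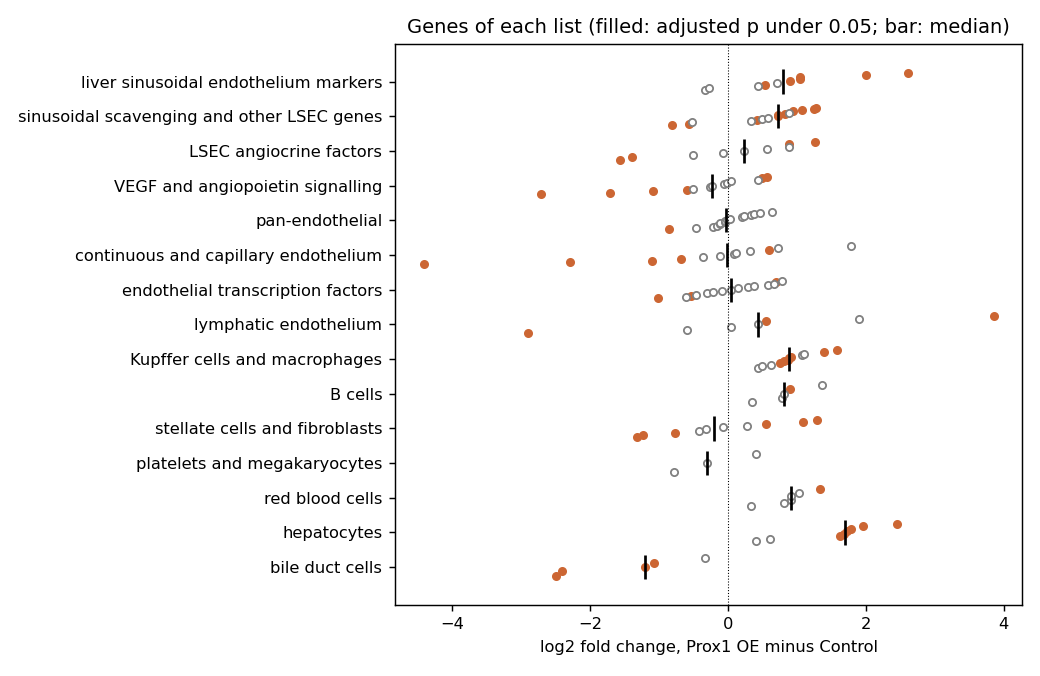
Log2 fold change, Prox1 OE minus Control, of every tested gene of the 10 markers and of each comparison list (filled where the limma adjusted p was under 0.05, vertical bar for the list median). The medians lie at 0.80 for the sinusoidal markers, -0.03 for genes of endothelium in general, 0.88 for Kupffer cells and 1.70 for hepatocytes.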

How the data were processed

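Bulk RNA-seq was analysed for 2 Control and 3 Prox1 OE libraries, grouped by their labels. The authors prepared strand-preserving dUTP libraries, mapped reads with STAR to mm10 and normalised with DESeq2. The counting tool and its strand setting are not given in the sources used here. The deposited table holds a signal per gene, namely reads divided by the library's size factor. All values (100%) were whole multiples of a read's worth within 0.01, so whole reads were recovered. A second table of the authors' own comparison (fold changes and p-values) was not used. 0 value columns were unassigned.

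Gene symbols and positions came from GENCODE M21 (GRCm38), which matched 55137 of 55397 identifiers. limma 3.58.1 (R 4.3.3) was fitted across 17105 genes on log2(normalised count + 1) with a mean-variance trend, two-sided, with Benjamini-Hochberg adjustment at 0.05. The constant of 1 understates changes of low genes. edgeR 4.0.16 and DESeq2 1.42.0 were run on recovered reads as alternatives, beside other scalings, constants, filters, a replicate block and each library left out. The procedure was tested on simulated counts. Replicates were distinct libraries (chi-square per degree of freedom 40.3 to 124). Read totals cover counting error only. Nothing pairs the replicate numbers by label. Exact permutation of 2 against 3 libraries could not go below p = 0.1.

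The markers and gene lists were chosen with earlier results of these data known. Named genes were the markers, Prox1, the tested VEGF and angiopoietin genes, up to 4 called genes per other list with the largest change and a mean of at least 100 (or, with none called, the most abundant gene), and the 5 genes closest to the markers' median profile. Others are marked as named after their values were seen or as outside this rule.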

Additional observations from a re-analysis of the deposited data

How the results depend on the processing

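Of 170 values computed for the 10 markers under 17 alternatives, 153 kept direction and call, 10 lost the call, 7 gained one and 0 changed sign. Clec4g, Dnase1l3 and Fcgr2b were called in all 17. With total reads as library size 2 markers were called lower, 1472 genes were higher and 6856 lower, and the markers' median was 0.37 (all genes -0.45). Relative to the pan-endothelial list 3403 genes were called, 1345 of them lower. An adjusted p under 0.01 left 3 markers and 2367 genes, by construction.

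Leaving out 1 library at a time gave 3 to 6 called markers, the fewest without Control replicate 1, 3 to 6 of them higher and 0 lower. Called genes ran from 1511 (without Control replicate 1) to 7494 (without Prox1 OE replicate 1), with 891 to 3729 higher and 620 to 3765 lower. The number lower was 1737 without Prox1 OE replicate 2, and the total was 2499 without Control replicate 2. Called genes of all related lists ran from 26 (without Control replicate 1) to 66, beside 56 with all libraries. The markers' median ran from 0.53 to 1.08. Fits without a Control library rest on 1 Control library, assumed to vary like the others. The cause of the other shifts was not tested.

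Replicate numbers were shared between groups, but deviations from the group means correlated by only 0.138 and 0.0156 for the shared numbers 1 and 2. A fit blocked on replicate number, for which Prox1 OE replicate 3 has no partner, called 6 markers and 5187 genes, with a marker median of 0.63. Every marker had at least 344 reads per library, and precision rests on 5 libraries.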

Other observations

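Perisinusoidal stellate cells, which share the sinusoid with the endothelium, showed both directions. Of 10 stellate and fibroblast genes 3 were higher and 3 lower in Prox1 OE, with a median log2 fold change of -0.20. With total reads as library size 2 were higher and 6 lower, with a median of -0.63. Lrat, the enzyme that stores vitamin A in resting stellate cells, rose by 1.09 (SE 0.17, limma adjusted p = 0.0047), and Colec11, a lectin of the same cells, rose by 1.29 (SE 0.21, limma adjusted p = 0.0052). Acta2, the actin of contractile myofibroblasts, fell by 1.32 (SE 0.23, limma adjusted p = 0.0058), and Col1a1, a fibrillar collagen, fell by 1.23 (SE 0.17, limma adjusted p = 0.0033). The directions of these 4 were the same under all 17 alternatives.

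Outside all lists, the 5 genes whose centred log2 profile over the 5 libraries lay closest to the median profile of the markers were Gm4952, Hs3st3b1, Pqlc1, Il18bp and Gm29216, among 12839 candidates. Their root-mean-square differences from it were 0.057, 0.0594, 0.0617, 0.0624 and 0.0732 on the log2 scale. Gm29216 is annotated as an unprocessed pseudogene, so its count is uncertain where reads were shared. The list is a description, chosen on these libraries.

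In all, 5 markers overlap exons of a gene on the opposite strand. For Clec4g, Stab2 and Fcgr2b the partner had at most 1 read in any library. The partner of Stab1, Nt5dc2, had 724 and 931 normalised counts in Control and 591 to 733 in Prox1 OE, where the groups overlapped, and that of Gpr182, Zbtb39, had 800 and 980 in Control and 572 to 665 in Prox1 OE. Whether counting used strand is not given in the sources used here. The log2 fold changes were -0.31 for Nt5dc2 (limma adjusted p = 0.19) and -0.50 for Zbtb39 (0.040).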
